A study of Homo sapiens with 42 samples.

Results

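The 36 aminoacyl-tRNA synthetase genes and 3 scaffold genes of the cytosolic synthetase complex were followed in HAP1 cells treated with inhibitors of transcriptional kinases. The 39 genes were taken by symbol from a table of 26228 genes: 20 encode cytosolic enzymes, 16 encode mitochondrial enzymes, and AIMP1, AIMP2 and EEF1E1 encode scaffolds. All 39 passed the filter on low values (at least 1 FPKM in at least 3 libraries), as did 12816 genes in all. HAP1 is a near-haploid line that came from a chronic myeloid leukaemia. Its 2 forms were HAP1 WT and HAP1 whose CDK7 carries C312S, which replaces the cysteine that covalent CDK7 inhibitors attach to. Each line was given DMSO, YKL at 500 nM, YKL at 2 µM, THZ531, THZ1, Combo at 500 nM or Combo at 2 µM, all for 24 h and all in medium with serum. There were 3 polyadenylated RNA libraries in each of the 14 groups.

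YKL is read here as the covalent CDK7 inhibitor named in the title of the series, THZ531 is a covalent inhibitor of CDK12 and CDK13, and THZ1 is a covalent inhibitor of CDK7 that also acts on CDK12 and CDK13. Doses of THZ531 and THZ1 are missing from the labels, so their values stand beside those of YKL without a comparison of the compounds. Combo names no compound in the labels; the column names of the table carry the codes of both THZ531 and YKL for it. It is not stated whether the C312S line is 1 clone or whether replicate libraries stem from separate cultures; the p-values here cover only the spread among libraries, which may be technical. In bulk RNA, fewer cells and less RNA per cell cannot be told apart.

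Aminoacyl-tRNA synthetases join each amino acid to its tRNAs and so supply the ribosome. Most mitochondrial enzymes are made from separate nuclear genes, while GARS and KARS serve both compartments. In the cytosol, several of the enzymes sit on AIMP1, AIMP2 and EEF1E1 in a multi-synthetase complex. When amino acids run short, translation of the transcription factor ATF4 rises, and ATF4 binds C/EBP-ATF response elements at the genes of many cytosolic synthetases, of asparagine synthetase and of amino acid transporters.

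The promoters of the members were searched for the core of that element, TGATGNAA, on both strands; on the opposite strand it reads TTNCATCA. The RefSeq promoter table (GRCh38.p14) covers 250 bases before to 50 bases after a start of transcription. It held promoters of 33 members; AARS2, DARS, LARS, VARS, VARS2 and YARS were not matched. A match lay in 1270 of 35116 promoters of all genes (3.62%) and in 8 of 45 promoters of the members (17.8%). By gene these were 7 of the 16 cytosolic enzymes searched, 1 of 14 mitochondrial enzymes (YARS2) and 0 of 3 scaffolds. Over all genes with a promoter 1217 of 27305 had a match (4.46%). All 7 of the cytosolic genes belong to a list of 12 enzymes commonly given as ATF4-responsive, of which 10 were searched; of the other cytosolic enzymes 6 were searched and 0 matched. The 7 stretches are printed because AARS, CARS, GARS and MARS, the cytosolic genes with the largest falls under YKL at 500 nM, are among them. SARS, the cytosolic gene next in that order, had 0 matches, as had SARS2, which fell most of all members. CARS, GARS and TARS each have another listed promoter with 0 matches. Each is 30 bases long and runs 5′ to 3′ on the strand of the gene, with the match in capitals.
AARS (alanine), chr16:70289675-70289704, minus strand: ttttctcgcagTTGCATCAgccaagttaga
CARS (cysteine), chr11:3057407-3057436, minus strand: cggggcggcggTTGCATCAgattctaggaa
GARS (glycine), chr7:30594834-30594863, plus strand: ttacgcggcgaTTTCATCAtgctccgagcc
IARS (isoleucine), chr9:92293692-92293721, minus strand: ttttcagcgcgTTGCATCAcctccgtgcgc
MARS (methionine), chr12:57488053-57488082, plus strand: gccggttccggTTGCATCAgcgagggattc
NARS (asparagine), chr18:57621804-57621833, minus strand: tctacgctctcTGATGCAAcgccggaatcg
TARS (threonine), chr5:33440956-33440985, plus strand: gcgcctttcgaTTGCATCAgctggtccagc
A match is a description of these letters only; binding was not measured in these data.

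The AARS promoter is shown at greater length because AARS fell with every WT treatment. Its 250 bases before the start (chr16:70289507-70289756, minus strand, GRCh38.p14) hold a single match, in capitals.
AARS promoter: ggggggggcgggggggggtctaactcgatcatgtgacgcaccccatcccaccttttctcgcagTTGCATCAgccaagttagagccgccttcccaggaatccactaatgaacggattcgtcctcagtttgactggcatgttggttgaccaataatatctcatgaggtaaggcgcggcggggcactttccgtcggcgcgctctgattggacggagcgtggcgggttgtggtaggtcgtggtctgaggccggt

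The table gives FPKM, which are scaled for gene length, so levels can be set side by side between genes. Read counts were not part of it and the absolute depth is unknown. The steps between low values give a relative depth of 0.473 to 4.45 times the median library. Libraries of 1 group correlated at 0.970 or more on the log2 scale. The DMSO and THZ1 libraries of the C312S line stood apart, with 780085 to 913367 FPKM summed over genes against 447938 to 637758 in all other libraries; results that rest on them are marked as such. CDK7 itself was at 38.2 ± 2.01 FPKM (SD, n = 3) in WT DMSO and 60.5 ± 1.75 in C312S DMSO, which is no check of the substitution. Of 10 blood cell genes 1 (CORO1A) had a median over 1 FPKM, and of 9 genes of adherent cells 6 did, VIM and KRT18 among them.

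In untreated WT cells the cytosolic enzymes were several times more abundant than the mitochondrial ones. The median cytosolic enzyme was at 100.6 to 105 FPKM in the 3 WT DMSO libraries and the median mitochondrial enzyme at 21.0 to 21.3 FPKM. Over all 42 libraries members ranged from 2.53 FPKM (AARS2) to 353 FPKM (TARS). KARS, TARS, GARS and SARS had the highest medians over groups, from 146 to 210 FPKM. PARS2, AARS2, FARS2 and SARS2 had the lowest, from 5.28 to 10.4 FPKM. Only 2 mitochondrial enzymes stood above a cytosolic one in this order: IARS2, at a median of 76.6 FPKM, exceeded LARS, VARS, AARS, DARS, HARS and CARS, and RARS2, at 44.0 FPKM, exceeded CARS.

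YKL lowered most cytosolic synthetase genes in WT cells. At 500 nM, 17 of 20 fell and 1 rose (HARS), with a median log2 change of -0.25. Over all 39 members 27 fell and 7 rose, against 31.7% of all genes tested called lower and 31.3% called higher (limma, adjusted p under 0.05), and the median of all genes was 0.00. At 2 µM, 18 of 20 cytosolic genes fell and 0 rose, with a median of -0.33; over all members 29 fell and 5 rose, against 33.5% of all genes lower and 31.8% higher. HARS and RARS were the cytosolic genes not called at 2 µM, where RARS gave 93.2, 87.9 and 94.8 FPKM against 100.1, 84.3 and 87.1 in DMSO. These and all other comparisons with WT DMSO share the same 3 control libraries.

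AARS, the alanyl-tRNA synthetase, changed most among the cytosolic enzymes. It was at 73.1, 73.3 and 72.6 FPKM with DMSO, 46.4, 44.3 and 43.0 FPKM with YKL at 500 nM, and 40.1, 40.8 and 38.9 FPKM at 2 µM. Libraries of the 3 groups did not overlap. Its log2 change was -0.70 (SE 0.036, limma adjusted p = 6.32e-17) at 500 nM and -0.86 (adjusted p = 2.48e-19) at 2 µM.

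Glycyl-, cysteinyl-, methionyl-, seryl- and tyrosyl-tRNA synthetase came next. GARS went from 188, 165 and 161 FPKM with DMSO to 114, 114 and 112 FPKM at 500 nM (log2 change -0.59, SE 0.035, adjusted p = 2.17e-15). CARS went from 45.8, 42.1 and 41.2 FPKM to 27.5, 28.6 and 27.3 FPKM (-0.61, adjusted p = 8.66e-13). MARS went from 131.5, 127.8 and 128 FPKM to 93.4, 91.2 and 90.1 FPKM (-0.49, adjusted p = 5.61e-15). In all 3 genes every treated library lay below every control library. YARS fell by 0.47 from a DMSO range of 113 to 122 FPKM to 82.6 to 84.2 FPKM, and SARS fell by 0.48 from 143 to 162 FPKM to 104 to 110 FPKM. At 2 µM these 5 genes had log2 changes of -0.66 (GARS), -0.60 (CARS), -0.63 (MARS), -0.58 (YARS) and -0.58 (SARS).

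The cytosolic enzymes differed by list. Of the 12 commonly given as ATF4-responsive, 11 fell at 500 nM and 12 at 2 µM, with median log2 changes of -0.46 and -0.47. Of the other 8, 6 fell at either dose, with medians of -0.20 and -0.26, and HARS rose at 500 nM. The 7 cytosolic genes with the promoter match all fell at both doses (medians -0.49 and -0.60). Of the 9 searched without it 6 and 7 fell (medians -0.18 and -0.23). All 7 are in the list of 12, so the split by match is not separate from the split by list. Of the 8 enzymes of the multi-synthetase complex 6 fell at 500 nM and 7 at 2 µM. The 3 scaffolds fell too: at 2 µM EEF1E1 by 0.55, AIMP1 by 0.43 and AIMP2 by 0.37. EEF1E1 was at 98.1, 83.4 and 96.6 FPKM with DMSO and 54.3, 65.3 and 69.9 FPKM with YKL at 2 µM. These differences between lists were not tested, and the lists were chosen with earlier results known.

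Scaling bears on these directions. As deposited, the WT YKL libraries held less summed FPKM (447938 to 483877) than WT DMSO (538556 to 588599). With every library set to the same total, the median gene moved up by 0.20 at 500 nM and 0.25 at 2 µM; then 7 cytosolic enzymes fell and 4 rose at 500 nM, and 6 fell and 4 rose at 2 µM. Relative to that median gene the cytosolic median stayed low, at -0.21 and -0.28. With scaling by spike-in RNA 20 cytosolic enzymes fell and 0 rose at 500 nM, with a median of -0.32 relative to the median gene.

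The mitochondrial enzymes split in both directions with YKL, as did all genes. At 500 nM 7 of 16 fell and 6 rose (median log2 change -0.10), beside 31.7% of all genes lower and 31.3% higher. At 2 µM 8 fell and 5 rose (median -0.14), beside 33.5% of all genes lower and 31.8% higher. These counts turned with the scaling, which moved the median gene too. Equal totals gave 2 lower and 8 higher at 500 nM (median 0.13) and 3 lower and 8 higher at 2 µM (median 0.14). Spike-in scaling gave 15 lower and 0 higher at 500 nM, and 9 lower and 1 higher at 2 µM. Relative to the median gene the mitochondrial median was -0.07 and -0.11 with equal totals. With spike-in scaling it was -0.15 and -0.14. SARS2, which charges mitochondrial serine tRNAs, fell most of all 39 members. It was at 16.5, 15.9 and 14.9 FPKM with DMSO, 7.49, 7.11 and 6.79 FPKM at 500 nM and 6.53, 7.41 and 7.02 FPKM at 2 µM. The 6 treated libraries lay at less than the lowest control library. The log2 change at 500 nM was -1.05 (SE 0.080, adjusted p = 9.61e-13). SARS2 overlaps MRPS12 on the opposite strand, and MRPS12 had a log2 change of -0.34 in the same comparison (adjusted p = 0.000619); the use of strand in counting was not stated. LARS2, the leucyl enzyme, gave 32.8, 34.3 and 33.7 FPKM with DMSO and 25.8, 25.4 and 26.4 FPKM at 500 nM (log2 change -0.37).

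RARS2, the arginyl enzyme, was the mitochondrial gene with the largest rise. RARS2 was at 38.5, 33.7 and 33.0 FPKM with DMSO, 45.7, 45.6 and 45.0 FPKM at 500 nM, and 44.7, 45.8 and 49.0 FPKM at 2 µM. All treated libraries were above the highest control library, and the log2 changes were 0.37 and 0.40. PARS2, FARS2, IARS2 and VARS2 also rose at both doses, with log2 changes from 0.16 (VARS2 at 2 µM) to 0.36 (PARS2 at 500 nM). EARS2 rose by 0.13 at 500 nM. In the heat map of WT changes the cytosolic block is mostly blue in the YKL columns and the mitochondrial block is mixed.

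**Figure D1:**
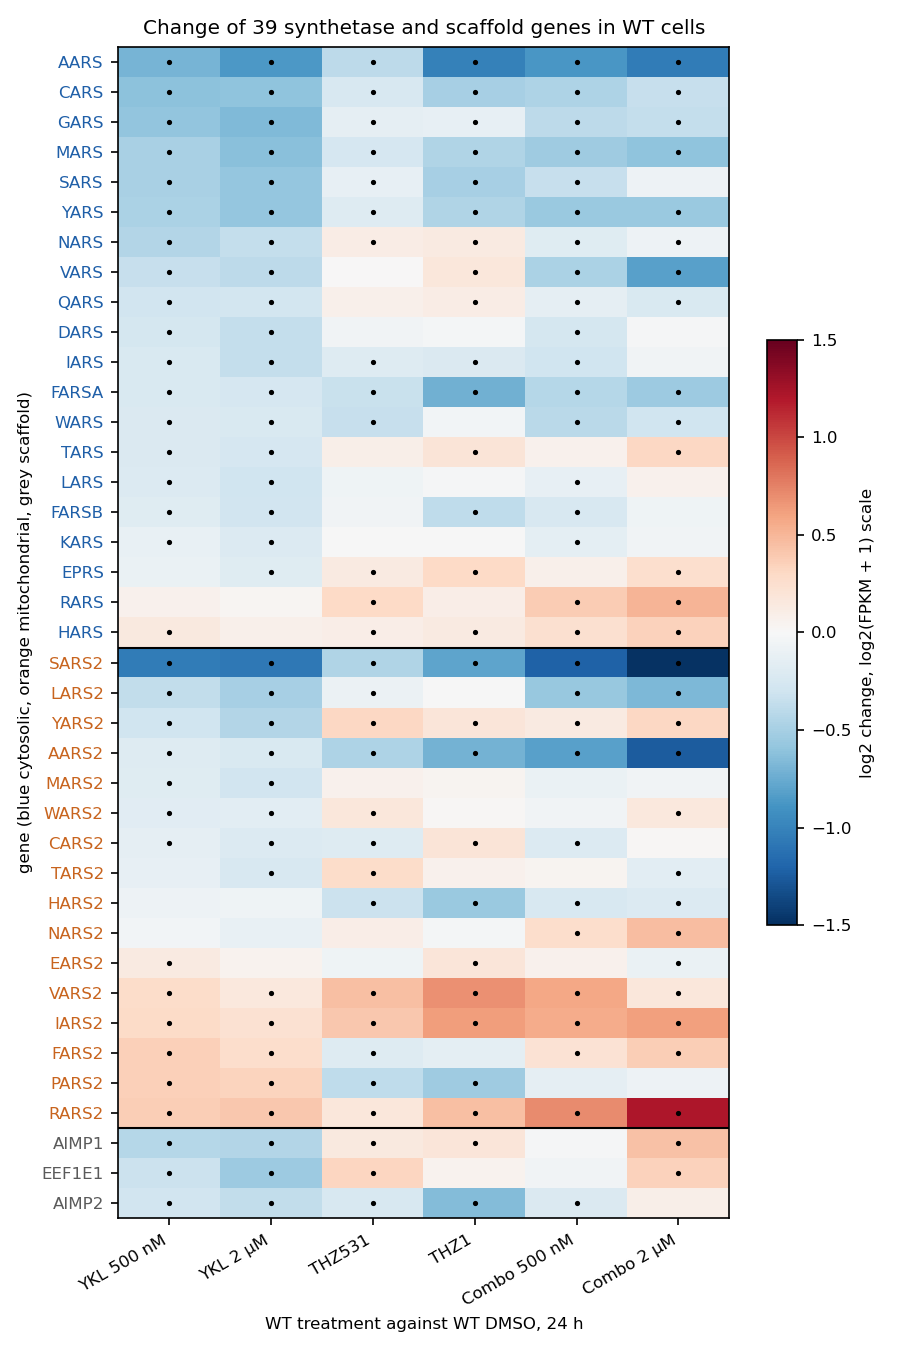
Log2 change of each of the 39 genes (rows, by class) in the 6 WT treatments against WT DMSO (columns), on the log2(FPKM + 1) scale; a dot marks a limma adjusted p under 0.05. With YKL at 500 nM 17 of 20 cytosolic and 7 of 16 mitochondrial genes fell, beside 31.7% of all genes called lower. SARS2, AARS, RARS2 and IARS2 were among the members that kept their direction in all 6 columns.

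Few members differed between the doses of YKL. Between 2 µM and 500 nM in WT cells 4 members fell and 0 rose, against 4.04% of all genes lower and 2.14% higher; without adjustment 14 were lower and 1 higher at p under 0.05. The 4 were AARS (-0.16), MARS (-0.14), IARS (-0.14) and LARS2 (-0.13). With only these 2 groups in the fit 0 were called. With spike-in scaling all 39 were higher at 2 µM, with the median gene at 0.47.

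With THZ531 members changed in both directions. Of the members 17 fell and 12 rose, against 22.9% of all genes lower and 24% higher. The cytosolic enzymes counted 9 lower and 4 higher with a median of -0.06, and the mitochondrial ones 7 lower and 6 higher with a median of -0.00. AARS, at 55.7, 55.4 and 54.5 FPKM, was again below every DMSO library (log2 change -0.40, adjusted p = 2.35e-10). AARS2, the mitochondrial alanyl enzyme, fell by 0.47, from 8.76, 9.57 and 8.21 FPKM to 6.58, 6.02 and 5.78 FPKM. VARS2 (valyl) rose by 0.45 from 15.8, 16.8 and 15.7 FPKM to 22.9, 21.6 and 22.7 FPKM, and IARS2 (isoleucyl) by 0.41 from 66.1, 65.4 and 64.2 FPKM to 84.6, 86.7 and 89.0 FPKM. With totals made equal the members' split was 13 lower and 16 higher, and with spike-in scaling 4 lower and 6 higher. The median gene was at 0.08 under either scaling. With only the compared groups in the fit 20 members were called, and leaving out 1 library left 22 to 27. Across the 39 members the change had a Spearman correlation of -0.49 with GC content of the transcripts, and across 12143 genes of -0.47. After the trend with GC was removed, 19 members were lower and 8 higher, and the cytosolic enzymes counted 12 lower and 4 higher with a median of -0.15.

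THZ1 also moved members both ways in WT cells. There 14 fell and 13 rose, against 34.8% of all genes lower and 34% higher, so the share of members called was near that of all genes. AARS, at 36.2, 35.8 and 34.8 FPKM, had its lowest level outside the combinations, with a log2 change of -1.01 (SE 0.036, adjusted p = 4.62e-21). SARS2 (9.58, 8.76 and 7.75 FPKM) fell by 0.79, FARSA, a subunit of phenylalanyl-tRNA synthetase, by 0.72, AARS2 by 0.71 and AIMP2 by 0.65. FARSA was at 103.5, 109.7 and 105.3 FPKM with DMSO and 66.5, 67.4 and 58.5 FPKM with THZ1. VARS2 (28.3, 26.0 and 25.5 FPKM) rose by 0.69 and IARS2 (101, 99.3 and 102.7 FPKM) by 0.62. LARS2 did not pass the test, at 32.8, 33.7 and 34.0 FPKM (log2 change -0.00). With totals made equal 21 members were lower and 4 higher, with the median gene at -0.15. With spike-in scaling, which moved the median gene by -1.99, all 39 were lower.

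The combinations gave the largest changes of single members. With Combo at 500 nM 22 members fell and 8 rose against DMSO, beside 34.2% of all genes lower and 34% higher; 16 of 20 cytosolic enzymes fell and 2 rose. With Combo at 2 µM 16 fell and 13 rose, beside 38.1% of all genes lower and 38.9% higher; 10 cytosolic enzymes fell and 4 rose. With totals made equal the members' split became 13 lower and 13 higher at 500 nM and 20 lower and 11 higher at 2 µM. With spike-in scaling it was 32 lower and 1 higher, and 38 lower and 0 higher. The median gene was then at 0.14 and -0.03 with equal totals, and at -0.34 and -0.93 with spike-in scaling.

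SARS2 reached its lowest level with Combo at 2 µM, at 5.30, 5.16 and 4.58 FPKM (log2 change -1.48, SE 0.080, adjusted p = 6.8e-17). AARS2 fell to 3.49, 2.87 and 3.06 FPKM (-1.25) and AARS to 36.6, 33.7 and 34.1 FPKM (-1.05). VARS fell to 47.3, 38.1 and 38.3 FPKM from 71.2, 74.2 and 74.1 FPKM (-0.82), and LARS2 to 21.3, 20.2 and 20.5 FPKM (-0.67). In each of these 5 genes the treated libraries lay below all DMSO libraries. RARS2 rose to 73.6, 94.1 and 80.2 FPKM (log2 change 1.21, SE 0.069, adjusted p = 2.58e-16), the largest rise of any member in WT cells. IARS2, at 97.9, 102 and 102.3 FPKM, rose by 0.62, and among cytosolic enzymes RARS rose by 0.51, HARS by 0.34, TARS by 0.32 and EPRS by 0.25. Across the members the change correlated at -0.63 with GC content (Spearman, n = 39), and across all genes at -0.46. After removal of the GC trend 15 cytosolic enzymes were lower and 3 higher, and their median moved from -0.08 to -0.28.

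**Figure D2:**
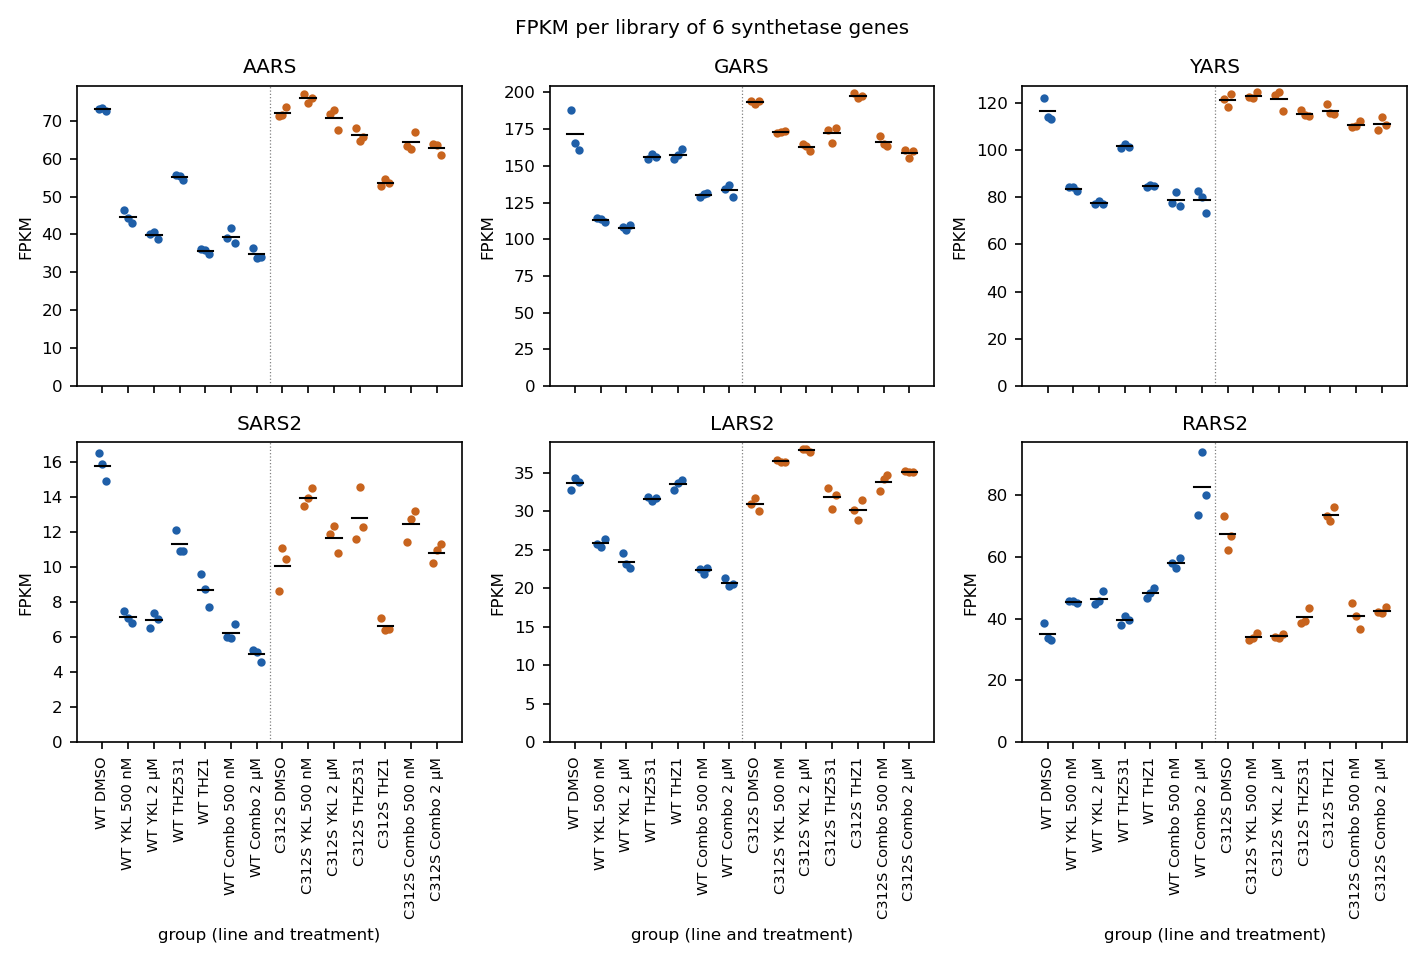
FPKM of 3 cytosolic (AARS, GARS, YARS) and 3 mitochondrial (SARS2, LARS2, RARS2) synthetase genes in each of 42 libraries; points are libraries (blue WT, orange C312S) and bars are group means, and every axis starts at 0. AARS was at 33.7 to 46.4 FPKM in the WT libraries with YKL, THZ1 or Combo and at 52.7 to 77.0 FPKM in all C312S libraries.

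The combination was next set against THZ531 alone in each line, which asks what YKL added. This comparison does not use the C312S DMSO libraries. In WT cells Combo at 500 nM lowered 22 members and raised 7 relative to THZ531, against 29.7% of all genes lower and 31.5% higher. SARS2 (-0.77), LARS2 (-0.49), VARS (-0.48) and AARS (-0.48) fell most and RARS2 rose most (0.54). LARS2 was at 31.8, 31.3 and 31.7 FPKM with THZ531 and at 22.4, 21.8 and 22.6 FPKM with Combo at 500 nM, and the groups did not overlap. At 2 µM 15 members fell and 14 rose, against 35.3% of all genes lower and 38.3% higher, with SARS2 at -1.04, VARS at -0.82, AARS2 at -0.79 and RARS2 at 1.04. With totals made equal the splits were 15 lower and 11 higher at 500 nM and 20 lower and 8 higher at 2 µM. With spike-in scaling 36 and 38 members were lower and 0 higher. Equal totals put the median gene at 0.09 and -0.08, and spike-in scaling at -0.40 and -0.98. The 2 µM change had a Spearman correlation of -0.53 with GC content across the 39 members and -0.29 across all genes. After removal of the GC trend 16 members were lower and 10 higher at 2 µM.

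In C312S cells Combo at 500 nM changed 0 of 39 members relative to THZ531 (limma), against 0.187% of all genes lower and 0.39% higher. Without adjustment 2 were lower and 3 higher at p under 0.05. AARS was at 68.2, 64.6 and 65.8 FPKM with THZ531 and 63.3, 62.5 and 67.0 FPKM with Combo at 500 nM, and the groups overlapped. Its log2 difference of -0.04 had a 95% interval of -0.12 to 0.03, and that of SARS2, -0.03, one of -0.20 to 0.13. Over all members the interval bounds ran from -0.21 to 0.38. With spike-in scaling 38 members were lower and the median gene moved by -0.34. The cause of that shift was not tested.

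At 2 µM in C312S cells 7 members fell and 9 rose, against 16.3% of all genes lower and 18.5% higher. VARS fell by 0.28 and SARS2 by 0.22, while PARS2 rose by 0.40, IARS by 0.30 and HARS by 0.29. IARS was at 132, 120 and 133 FPKM with THZ531 and 154, 156 and 163 FPKM with Combo at 2 µM. AARS (-0.08, adjusted p = 0.105) and RARS2 (0.08, adjusted p = 0.412) did not pass the test. Leaving out replicate 2 of this combination left 10 members called. Equal totals gave 9 lower and 6 higher, and with spike-in scaling 38 were lower. The median gene was at -0.05 and -0.68 under these scalings.

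**Figure D3:**
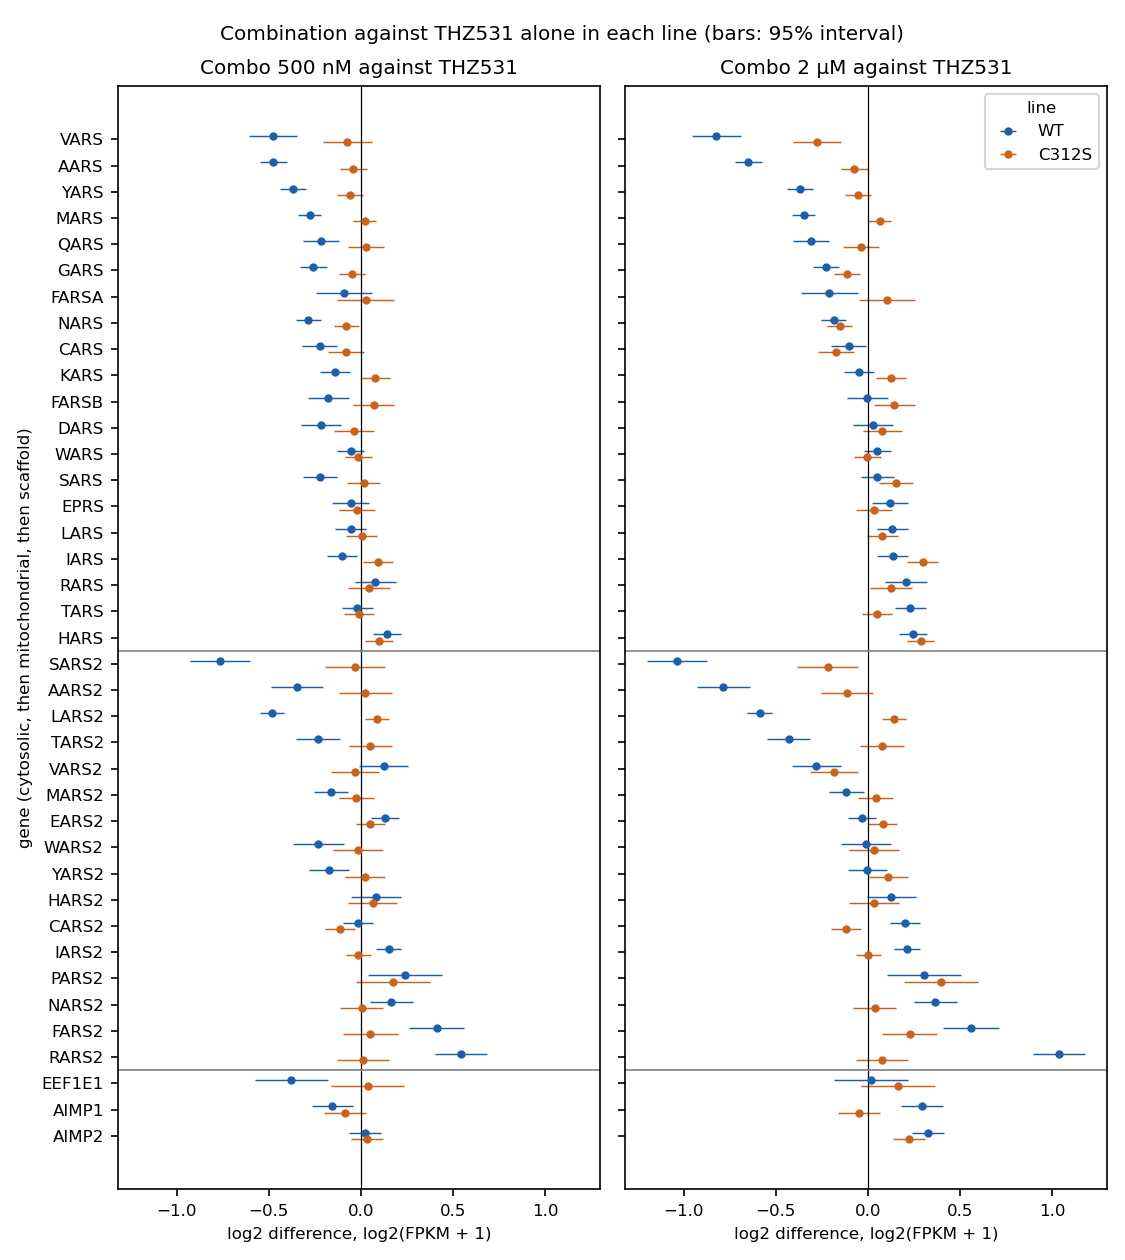
Log2 difference of Combo against THZ531 for each of the 39 genes at 500 nM (left) and 2 µM (right) of YKL; points are limma estimates on log2(FPKM + 1) in WT (blue) and C312S (orange) and bars are 95% intervals. WT differences reach -1.04 (SARS2) and 1.04 (RARS2), and the C312S differences at 500 nM lie between -0.11 and 0.17.

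The difference between the lines was tested directly as an interaction. For Combo at 500 nM over THZ531 the C312S effect was higher than the WT effect for 17 members and lower for 3, against 20.5% and 21% of all genes. SARS2 (0.73), LARS2 (0.57) and AARS (0.43) were the largest on the higher side, and RARS2 (-0.53) on the lower side. All 11 cytosolic enzymes called were on the higher side. Under equal totals 14 members were higher and 5 lower, and with spike-in scaling 4 were higher and 1 lower. The median gene was at -0.06 and 0.06 under these scalings. For Combo at 2 µM 13 members were higher and 7 lower, against 25.9% and 27.2% of all genes, with RARS2 at -0.96 (SE 0.098, adjusted p = 1.41e-09), SARS2 at 0.82, LARS2 at 0.73 and AARS2 at 0.67. Equal totals gave 18 higher and 6 lower, and spike-in scaling 26 higher and 1 lower. Here they put the median gene at 0.04 and 0.31. SARS2, which fell most in WT cells, had positive differences, and RARS2, which rose most, negative ones. The WT effect is part of each difference, so these signs are no separate result. At 2 µM the difference had a Spearman correlation of 0.50 with GC content across the 39 members and 0.32 across all genes. Transcript GC was 61.9% for SARS2 and 41.1% for RARS2. After removal of the GC trend 17 members were higher and 5 lower at 2 µM.

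Treatment with YKL alone in C312S cells is given by level only, because its DMSO libraries stood apart. AARS was at 77.0, 74.8 and 75.9 FPKM with 500 nM and 71.7, 72.8 and 67.4 FPKM with 2 µM, beside 71.2, 71.6 and 73.6 FPKM in C312S DMSO. LARS2 was at 36.7, 36.4 and 36.4 FPKM with 500 nM, above the 25.4 to 26.4 FPKM of WT cells at the same dose. SARS2 was at 13.5, 13.9 and 14.5 FPKM with 500 nM, and WT cells had 6.79 to 7.49 FPKM. The levels of the lines with YKL at 500 nM did not overlap for these 3 genes. AARS, LARS2 and SARS2 were picked with their falls in WT cells known. A difference between the lines without YKL was not removed from these levels. GARS was at 172.5, 173.1 and 174 FPKM with 500 nM against 194, 192 and 194 FPKM in C312S DMSO.

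THZ1 changed many members in C312S cells as well, with libraries that stand apart on both sides of the comparison. There 16 fell and 15 rose (21 and 14 with totals made equal, 18 and 4 with spike-in scaling), against 29.7% of all genes lower and 33.9% higher. The median gene was at -0.06 with equal totals and -0.14 with spike-in scaling. AARS went from 71.2, 71.6 and 73.6 FPKM to 52.7, 54.7 and 53.6 FPKM (log2 change -0.42), and the groups did not overlap. VARS2 rose by 0.75 from 10.1, 10.4 and 11.1 FPKM to 17.5, 18.9 and 18.6 FPKM, and EEF1E1 by 0.59. PARS2 fell by 0.66 and SARS2 by 0.52. As an interaction, the THZ1 effect was higher in C312S than in WT for 17 members and lower for 7, against 22.4% and 19.8% of all genes. AARS (0.59), EEF1E1 (0.54), YARS (0.40) and RARS (0.37) differed most. YARS was at 119.4, 115.4 and 115.1 FPKM with THZ1 in C312S cells and 84.4, 85.1 and 84.9 FPKM in WT cells.

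The lines differed under DMSO in most members, as in most of all genes tested. In C312S DMSO 24 members were higher and 8 lower than in WT DMSO, against 41.3% of all genes higher and 37.9% lower. The share of members called in either direction was thus near that of all genes. AARS2 was lower by -1.03 on the log2 scale, at 3.53, 3.90 and 4.05 FPKM against 8.76, 9.57 and 8.21 FPKM. EEF1E1 (0.94), RARS2 (0.92) and AIMP1 (0.82) were higher; RARS2 was at 73.1, 62.2 and 66.7 FPKM. Across the members this difference correlated at -0.76 with GC content (Spearman, n = 39), and across all genes at -0.55. After removal of the GC trend 18 members were higher and 7 lower, with a median of 0.06 in place of 0.23, and 9 cytosolic enzymes were higher in place of 14. With totals made equal 26 members were lower and 8 higher, with the median gene at -0.36. With spike-in scaling all 39 were lower, with the median gene at -1.12. The libraries that stand apart and the line cannot be told apart in this comparison.

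Under THZ531 the lines differed less. There 9 members were higher and 4 lower in C312S, against 17% of all genes higher and 13.5% lower. With totals made equal 3 were higher and 7 lower, with the median gene at -0.07. HARS2 (0.32), CARS2 (0.30) and AARS (0.26) were higher and IARS2 (-0.22) lower. AARS in C312S cells, at 64.6 to 68.2 FPKM, lay above the 54.5 to 55.7 FPKM of WT cells. AARS2 did not pass the test here (log2 difference 0.12, adjusted p = 0.205), with 6.75, 6.65 and 6.80 FPKM in C312S and 6.58, 6.02 and 5.78 FPKM in WT, so that the libraries of the lines did not overlap.

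Genes that share the amino acid response with the cytosolic synthetases were counted from a list of 27, of which 25 were tested. In WT cells 22 fell and 3 rose with YKL at either dose. Of all genes 31.7% were lower and 31.3% higher at 500 nM, and 33.5% and 31.8% at 2 µM. With THZ531 19 fell and 1 rose (22.9% of all genes lower and 24% higher). With THZ1 15 fell and 7 rose (34.8% lower and 34% higher). With each combination 21 fell and 3 rose (34.2% lower and 34% higher at 500 nM, 38.1% and 38.9% at 2 µM). ATF3, a stress-induced transcription factor, was among those that rose, by 1.29 with THZ1 and 1.67 with Combo at 2 µM. ATF4 mRNA was at 414, 384 and 376 FPKM with DMSO and 187, 186 and 182 FPKM with YKL at 500 nM, a log2 change of -1.08 (adjusted p = 2.34e-20). ASNS, asparagine synthetase, fell by 1.26 and PSAT1, of serine synthesis, by 0.83 at that dose. ATF4 protein was not measured. In C312S cells Combo at 500 nM lowered 1 gene of the list relative to THZ531 (ASNS, -0.25) and raised 0. Of all genes 0.187% were lower and 0.39% higher. At 2 µM 8 fell and 4 rose, beside 16.3% of all genes lower and 18.5% higher. Among them were ASNS (-0.40), SLC7A1 (-0.38) and ATF3 (0.48). At 500 nM ATF4 had -0.10 (adjusted p = 0.431) in C312S cells and -0.67 in WT cells.

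Other genes around tRNA and translation are counted beside 31.7% of all genes lower and 31.3% higher with YKL at 500 nM, and 38.1% lower and 38.9% higher with Combo at 2 µM. Of 22 genes of tRNA processing, export and editing, 12 fell and 5 rose with YKL at 500 nM, with AARSD1, which clears mischarged alanine tRNA, at -1.10 and PUS7, a pseudouridine synthase, at -0.83. Of 6 cytosolic elongation factor genes 4 fell and 0 rose, among them EEF1D (-1.12), EEF1G (-0.91) and EEF2 (-0.68). Of 18 other genes of mitochondrial translation 9 rose and 5 fell at that dose, and 15 rose and 2 fell with Combo at 2 µM. GFM2, a mitochondrial ribosome recycling factor, rose by 1.34 with that combination, while GTPBP3, which modifies mitochondrial tRNA, had -1.55. The counts of these lists and of the amino acid response list use the deposited scaling only. Spike-in scaling put the median gene at -0.58 with YKL at 500 nM and -0.93 with Combo at 2 µM. Of all calls it left 5.15% and 2.55% higher. With equal totals the median gene was at 0.20 and -0.03. Across all genes the change with Combo at 2 µM correlated at -0.46 with GC content (Spearman).

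The classes as a whole are described by the mean log2 level of their enzymes in each library. The cytosolic mean exceeded the mitochondrial mean by 2.26 ± 0.04 (SD, n = 3) in WT DMSO, by 2.01 ± 0.01 with YKL at 500 nM, 2.01 ± 0.03 with YKL at 2 µM, 2.19 ± 0.01 with THZ531, 2.11 ± 0.03 with THZ1, 2.05 ± 0.02 with Combo at 500 nM and 2.12 ± 0.02 with Combo at 2 µM. Every treated WT library lay below the lowest DMSO library, at 2.22. This gap is a ratio within a library and does not depend on scaling apart from the pseudocount. In C312S cells the gap was 2.26 ± 0.02 and 2.24 ± 0.01 with YKL at 500 nM and 2 µM, 2.23 ± 0.03 with THZ531, 2.21 ± 0.02 and 2.22 ± 0.02 with the combinations, and 2.43 ± 0.02 and 2.38 ± 0.02 in the DMSO and THZ1 libraries that stand apart. The classes were chosen by name, so this is a description, with no test.

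**Figure D4:**
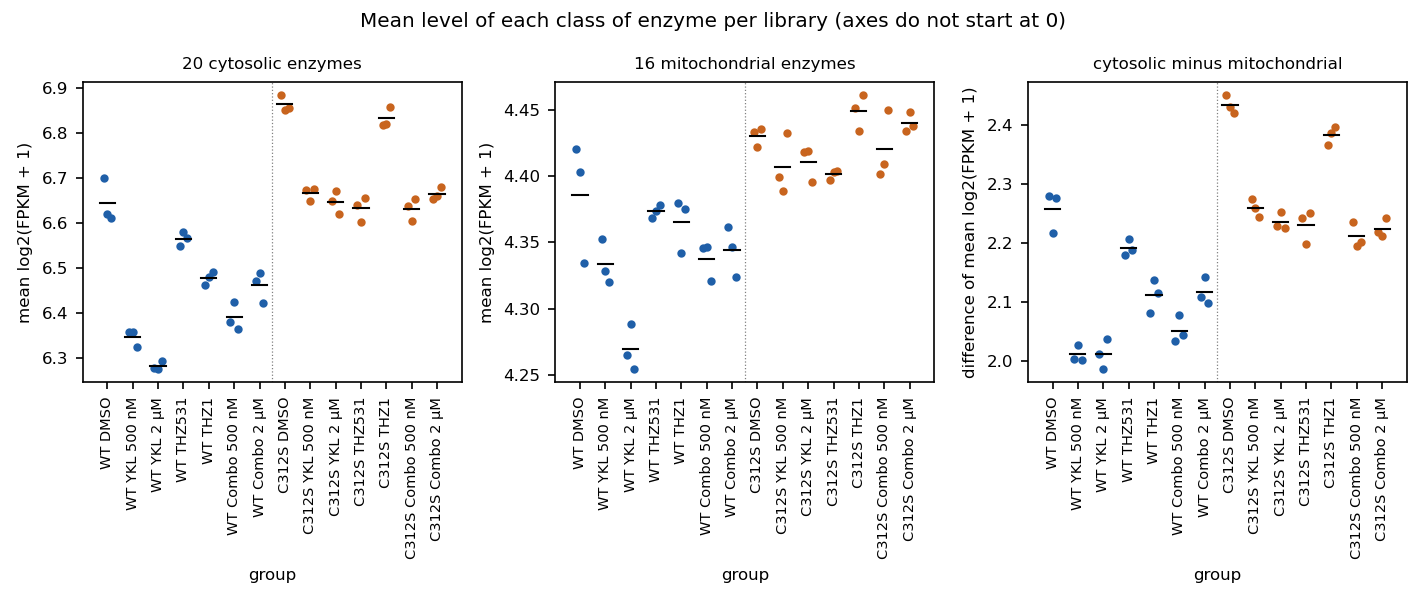
Mean log2(FPKM + 1) of the 20 cytosolic enzymes (left) and the 16 mitochondrial enzymes (middle) and their difference (right) in each library; points are libraries (blue WT, orange C312S) and bars are group means. The difference is 2.22 to 2.28 in WT DMSO and 1.99 to 2.04 in the WT libraries with YKL at 2 µM.

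Some members are uncertain because of their neighbours. The gene bodies of 22 of 39 members overlap another gene of the table, such as MARS with DDIT3, HARS with HARS2 and SARS2 with MRPS12 on opposite strands, and EEF1E1 with the read-through EEF1E1-BLOC1S5 on the same strand. How reads there were split was not stated.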

How the data were processed

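RNA-seq of 42 libraries (14 groups, 3 each) was used as a table of 26320 entries, of which 92 are spike-in RNAs and 26228 are genes. The deposited values are FPKM (fragments scaled for gene length and library size) made by the authors; HISAT2 2.0.4, Cufflinks 2.2.1, Cuffnorm and hg19 are named in the submitters' processing notes, with no settings. FPKM keep no counts, so no count model was used, and precision rests on 3 libraries a group. The 12816 genes that reached 1 FPKM in 3 or more libraries were fitted on log2(FPKM + 1), which understates changes of low genes, with limma 3.58.1 in R 4.3.3: 14 group means, trended empirical Bayes and Benjamini-Hochberg adjustment within each of 17 comparisons; genes with an adjusted p under 0.05 were called. The scripts were tested on simulated data. All 42 columns were matched to samples by label.

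All 39 members may be named. Library values were given for up to 8 called members with the largest changes per WT treatment and up to 4 elsewhere, and up to 3 called genes per pathway list; values of RARS, RARS2, LARS2, YARS, GARS, AARS2 and others outside this rule were chosen after they were seen. The members and lists were chosen with earlier results of these data known. Alternatives changed the pseudocount, filter, scaling (equal totals, median ratio, spike-in), samples in the fit and replicate block, or left out each library. A removal of the GC trend and a fit without the C312S DMSO and THZ1 libraries were chosen after seeing the data. Same-numbered libraries did not deviate together: in 0 of 14 comparisons were all their correlations over 0.1 (range -0.16 to 0.16). Promoters came from RefSeq (GRCh38.p14), not the build of the table, and only their letters were used.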

Additional observations from a re-analysis of the deposited data

Results flagged for a closer look

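The effects of treatment differed between WT and C312S cells by the test of the difference itself (limma interaction). For Combo at 500 nM over THZ531, 20 members differed, among them SARS2 (0.73, SE 0.113, adjusted p = 4.01e-06), LARS2 (0.57), AARS (0.43) and RARS2 (-0.53), as the C312S effect minus the WT effect on the log2 scale. Of all genes 20.5% were higher and 21% lower. For Combo at 2 µM over THZ531, 20 members differed, among them RARS2 (-0.96), SARS2 (0.82), LARS2 (0.73) and AARS2 (0.67). Of all genes 25.9% were higher and 27.2% lower, so the share of members called was near that of all genes. For THZ1 over DMSO, 24 members differed, among them AARS (0.59, SE 0.051, adjusted p = 9.07e-11), EEF1E1 (0.54), YARS (0.40) and RARS (0.37). Of all genes 22.4% were higher and 19.8% lower. The THZ1 difference rests on the C312S DMSO and THZ1 libraries, which stand apart in summed FPKM; their part in it was not tested.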

How the results depend on the processing

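Spike-in scaling kept 67 of 88 calls of named members, ended 7 and reversed 14; the cause was not tested. It moved all genes too, with the median gene between -1.99 (WT THZ1 against DMSO) and 1.85 (the THZ1 interaction). Under it the members called numbered 10 for WT THZ531 against DMSO, 39 for WT YKL at 2 µM against 500 nM, 38 for each combination against THZ531 in C312S cells, 3 for the lines under THZ531, 39 for the THZ1 interaction and 5 for the Combo 500 nM interaction. It reversed VARS2 (-1.59) and IARS2 (-1.77) in WT THZ1, IARS2 (-0.49) in WT Combo 2 µM, RARS2 (-0.13) in WT Combo 2 µM against THZ531, and AARS (0.38), MARS (0.40), IARS (0.40) and LARS2 (0.39) between the YKL doses. It also reversed PARS2 (-0.26), IARS (-0.48) and HARS (-0.48) in C312S Combo 2 µM against THZ531, and EEF1E1 (-0.49), RARS2 (-0.50) and AIMP1 (-0.59) between the lines under DMSO. Equal totals left 22 members called for WT YKL at 500 nM and 1 between the YKL doses. With only the compared groups fitted, 0 were called between the YKL doses and 10 for C312S Combo 2 µM against THZ531. Removing the GC trend gave 9 between the YKL doses and ended 0 of 88 calls of named members, but moved class medians: -0.08 to -0.28 for cytosolic enzymes in WT Combo 2 µM, -0.06 to -0.15 in WT THZ531, and 0.23 to 0.06 for all members between the lines under DMSO. Leaving out 1 library gave 1 to 4 between the YKL doses (1 without YKL 2 µM replicate 3) and 10 to 15 for C312S Combo 2 µM against THZ531. The replicate block changed 0 of 88 calls of named members and left 34 members called for WT YKL at 500 nM; same-numbered libraries are not paired by the labels. Absolute depth is unknown, which limits what can be said of AARS2, PARS2 and SARS2, the members with low FPKM.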
